A study of Homo sapiens with 6 samples.

Results

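The centromere and kinetochore genes described here are 42 human genes taken by symbol from a fixed list. They cover CENP-A and its deposition factors, the inner network of CENP proteins, the outer KNL1, MIS12 and NDC80 complexes, the SKA complex, the fibrous corona, checkpoint proteins and the chromosomal passenger complex. All 42 matched an Ensembl identifier among the 20289 genes of the deposited table. A test was possible for 41 of them; CENPE, at a mean below 1 FPKM, was not tested. FPKM is the number of sequenced fragments of a gene, scaled to its length and to the library's total, so that genes and libraries can be compared.

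The cells were RKO, an established human colorectal cancer line, carrying a short hairpin RNA against TRMT6 (shTRMT6, 3 libraries) or a control hairpin (shControl, 3 libraries, called wild type in the labels). TRMT6 is the non-catalytic subunit of the methyltransferase that makes 1-methyladenosine in tRNA, and the study's title concerns its part in histone synthesis. The labels name a single knockdown derivative and give neither the hairpin sequences nor whether replicates were separate cultures, so each p-value speaks only of the scatter among these 6 libraries, part or all of which may be technical.

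The kinetochore is the protein assembly that joins each chromosome to spindle microtubules in mitosis. It is built on centromeric nucleosomes that hold the histone H3 variant CENP-A, through an inner network of CENP proteins that stays at the centromere and an outer layer that binds microtubules. Most of its genes are transcribed late in the cell cycle in dividing cells, and many of their promoters carry the CHR element, a short motif through which the DREAM and MuvB complexes act.

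TRMT6 measured 1.58, 1.73 and 1.09 FPKM in shTRMT6 against 14.43, 17.96 and 16.85 FPKM in shControl, lower in every knockdown library (log2 fold change -2.82, SE 0.13, limma adjusted p = 4.33e-08). An exact two-sided permutation test gave p = 0.1, the smallest that 3 libraries against 3 allow. Estimated depth, read from the steps between low values, was 18.3 to 20.2 M (mega) fragments in shTRMT6 and 21.6 to 28.3 M in shControl; these estimates are rough. Of the epithelial markers, KRT18 averaged 186 FPKM in shTRMT6 and 118 FPKM in shControl, and EPCAM averaged 6.29 FPKM in shTRMT6 and 4.20 FPKM in shControl, both called higher, whereas CDH1, KRT19, VIL1 and CDH17 were listed at 0 in all libraries. KRT8 and CDX2 were present and not called. All 6 fibroblast and all 3 endothelial markers averaged below 0.3 FPKM in both groups, as did the leukocyte markers PTPRC, CD3E and LYZ; CD68, a lysosomal protein gene on the leukocyte list, averaged 871 FPKM in shTRMT6 and 726 FPKM in shControl and was not called.

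More of these genes fell than rose on knockdown of TRMT6, by amounts below 2-fold. Of the 41 tested, 12 fell (29.3%) and 3 rose (7.32%), and 26 did not pass the test. Over all 10592 tested genes, 16.1% were called lower and 19.3% higher. The members' median log2 fold change was -0.22, against 0.02 for all tested genes, with a range of -0.77 to 0.47. The groups did not overlap for 13 tested members that were lower in shTRMT6 and 5 that were higher; among all tested genes these shares were 22.1% and 26.2%. HJURP, OIP5 and the chromosomal passenger genes were among those that fell, and SKA2, MIS12 and ZW10 were those that rose. Since RNA was measured in bulk, fewer cells in G2 and mitosis cannot be told apart from less of these RNAs per cell. Without shTRMT6 replicate 2, SKA2 was the only member still called higher.

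**Figure D1:**
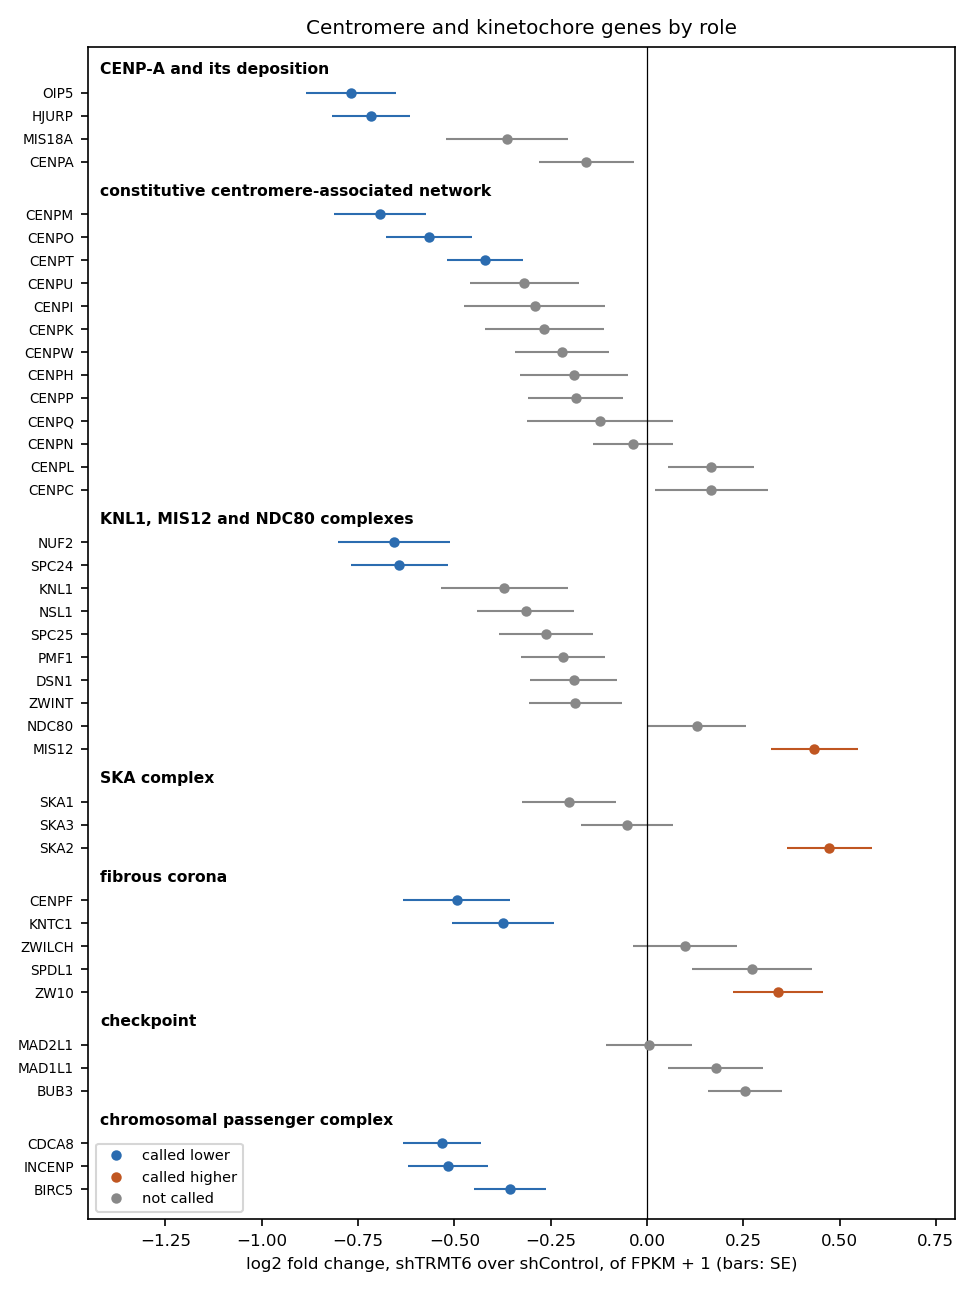
Log2 fold change of shTRMT6 over shControl on the log2(FPKM + 1) scale for the 41 tested genes, grouped by role; points are estimates and bars are standard errors from limma. The 12 genes called lower include all 3 passenger complex genes, and the 3 called higher (SKA2, MIS12, ZW10) each sit in a different role group. Among all tested genes 16.1% were called lower and 19.3% higher.

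Base composition moved with these calls. The transcripts of the members called lower had a median GC content of 51.8%, those called higher 41.5% and those not called 41.2%, against 48.8% over all tested genes. After each library's trend on GC content was removed, 26 members were called lower and 2 higher, where 19.4% and 19.8% of all genes were called, and the members' median was -0.37. All 12 that fell in the uncorrected fit were again called lower. Of the 3 that rose, SKA2 was called again (log2 fold change 0.22, adjusted p = 0.0491), and MIS12 (0.22, adjusted p = 0.0659) and ZW10 (0.18, adjusted p = 0.0974) were not. The second gene called higher after the correction was MAD1L1. Without shControl replicate 1, and with no GC correction, CENPI, CENPK, KNL1, DSN1 and NSL1 were called lower as well, with adjusted p from 0.00724 to 0.046. That made 17 members lower and 2 higher, where 16.3% and 17.8% of all tested genes were called.

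**Figure D2:**
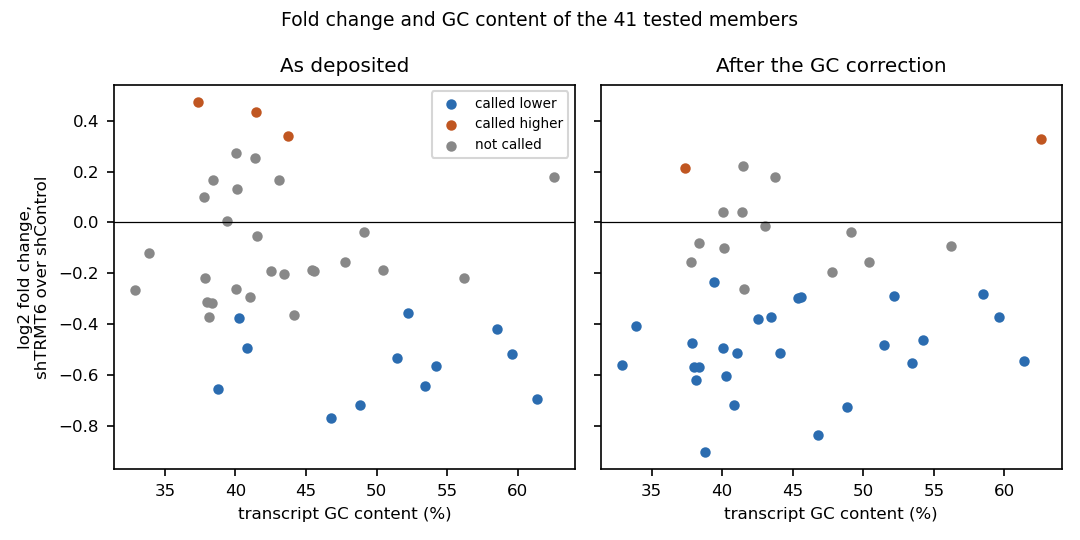
Log2 fold change of shTRMT6 over shControl (vertical axis) against transcript GC content in percent (horizontal axis) for the 41 tested genes, from the values as deposited (left) and after the GC correction (right); colours give the call. Most uncalled genes below about 45% GC are called lower after the correction, and the count of genes called lower is 12 on the left and 26 on the right.

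CENP-A is kept at centromeres by deposition in early G1, for which HJURP is the chaperone and the MIS18 complex, with OIP5 (MIS18-beta) and MIS18A, the licensing factor. HJURP (ENSG00000123485; chromosome 2, 233833416 to 233854566, minus strand in GENCODE release 29, GRCh38) measured 12.3, 11.4 and 11.3 FPKM in shTRMT6 against 19.9, 19.0 and 20.5 FPKM in shControl. The groups were well apart, and HJURP fell, by 1.70-fold (a log2 fold change of -0.72, SE 0.10, adjusted p = 0.000272). OIP5 had the lowest fold change of all members, at 4.35, 4.13 and 3.70 FPKM in shTRMT6 and 6.91, 7.97 and 8 FPKM in shControl (1.88-fold lower, log2 fold change -0.77, SE 0.12, adjusted p = 0.000436). A stretch of 38% of the exon bases of OIP5 is shared with OIP5-AS1 on the opposite strand, and with no strand setting given, reads of the pair cannot be told apart. MIS18A averaged 7.97 ± 2.06 FPKM in shTRMT6 and 10.4 ± 1.38 FPKM in shControl (SD, n = 3 each) and did not pass (adjusted p = 0.0892); with libraries of the same replicate number treated as pairs its adjusted p was 0.0101, and without shTRMT6 replicate 2 it was 0.0245. CENPA, the histone itself, read 9.53, 10.6 and 8.06 FPKM in shTRMT6 against 9.36, 11.1 and 11.3 FPKM in shControl, with groups that overlapped (log2 fold change -0.16, SE 0.12, adjusted p = 0.343). The ratio of HJURP to CENPA in FPKM was 1.29, 1.07 and 1.40 in shTRMT6 against 2.12, 1.72 and 1.82 in shControl; the transcripts have similar GC content, 48.8% and 47.8%.

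The constitutive centromere-associated network is a set of subcomplexes on the CENP-A nucleosome, in which CENP-C and CENP-T link to the outer kinetochore. Of its 13 genes 3 fell (23.1%, against 16.1% of all tested genes) and none rose (against 19.3%). A negative log2 fold change was found in 11 of them, and in 4989 of all 10592 tested genes. After the GC correction 9 were called lower (69.2%, against 19.4% of all genes). CENPM, of the subcomplex with CENP-H, CENP-I and CENP-K, measured 13.1, 13.3 and 12.1 FPKM in shTRMT6 against 25.3, 19.0 and 20.2 FPKM in shControl. Its spread was larger in shControl, where replicate 1 was high, and it fell by 1.68-fold (a log2 fold change of -0.69, SE 0.12, adjusted p = 0.000862). CENPO measured 9.64, 9.15 and 11.4 FPKM in shTRMT6 against 15.9, 15.6 and 14.6 FPKM in shControl (1.52-fold lower, log2 fold change -0.57, SE 0.11, adjusted p = 0.00211). The exons of CENPO share 27% of their bases with ADCY3 on the opposite strand, itself called lower (log2 fold change -0.68, adjusted p = 0.000727), so the call on CENPO is uncertain. CENPT, which recruits NDC80 complexes directly, averaged 15.7 ± 0.612 FPKM in shTRMT6 and 21.4 ± 1.08 FPKM in shControl (SD, n = 3 each; log2 fold change -0.42, adjusted p = 0.00582).

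The other inner genes overlapped between groups except CENPL, and none of these 10 passed. CENPW, the partner of CENP-T in a histone-fold pair and the gene of this network with the highest mean, read 21.7, 17.5 and 16.5 FPKM in shTRMT6 against 20.4, 24.4 and 20.3 FPKM in shControl (adjusted p = 0.176). CENPL, which with CENPN binds the CENP-A nucleosome and CENP-C, was at 4.62, 4.98 and 4.91 FPKM in shTRMT6 against 4.14, 4.32 and 4.14 FPKM in shControl; the groups did not overlap, but the difference did not pass (log2 fold change 0.17, SE 0.11, adjusted p = 0.262). CENPN itself averaged 19.2 ± 1.03 FPKM in shTRMT6 and 19.7 ± 1.63 FPKM in shControl (SD, n = 3 each). CENPC, the scaffold of the inner kinetochore, was low, at 2.10 ± 0.535 FPKM in shTRMT6 and 1.74 ± 0.210 FPKM in shControl (SD, n = 3 each). CENPU, which recruits the kinase PLK1, had a log2 fold change of -0.32 (adjusted p = 0.0956; 0.0272 with replicate numbers as pairs). The log2 fold changes of CENPH, CENPI, CENPK, CENPP and CENPQ lay between -0.29 and -0.12. Exons overlap those of a gene on the opposite strand in CENPP (38% of bases, with IPPK), CENPN (12.8%, with CMC2), CENPU (11.7%, with PRIMPOL) and CENPT (6.86%, with THAP11), and reads from those stretches cannot be told apart.

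The KNL1, MIS12 and NDC80 complexes form the outer, microtubule-binding layer. Of its 10 genes 2 fell (20%, against 16.1% of all tested genes) and 1 rose (10%, against 19.3%). After the GC correction 7 were called lower (70%) and none higher, against 19.4% and 19.8% of all genes. Those called lower were then NUF2, SPC24, SPC25, KNL1, ZWINT, DSN1 and NSL1. NDC80 and NUF2 form the microtubule-binding end of the NDC80 complex, and SPC24 and SPC25 the end that docks on the inner kinetochore. NUF2 (ENSG00000143228; chromosome 1, 163266576 to 163355764, plus strand) measured 4.02, 5.57 and 4.03 FPKM in shTRMT6 against 6.59, 9.10 and 7.48 FPKM in shControl. Every shTRMT6 library was below every shControl library (1.70-fold lower, log2 fold change -0.66, SE 0.14, adjusted p = 0.00393). NDC80 (ENSG00000080986; chromosome 18, 2571511 to 2616635, plus strand) did not follow, at 5.24, 6.36 and 4.69 FPKM in shTRMT6 against 4.55, 5.25 and 4.75 FPKM in shControl, with overlapping groups (log2 fold change 0.13, SE 0.13, adjusted p = 0.449). The ratio of NUF2 to NDC80 was thus 0.767, 0.876 and 0.859 in shTRMT6 and 1.45, 1.73 and 1.57 in shControl, between transcripts of 38.8% and 40.1% GC. SPC24 measured 10.7, 10.1 and 8.03 FPKM in shTRMT6 against 15.9, 16.9 and 13.8 FPKM in shControl (1.62-fold lower, log2 fold change -0.64, SE 0.13, adjusted p = 0.00201). SPC25 averaged 6.72 ± 0.860 FPKM in shTRMT6 and 8.24 ± 0.714 FPKM in shControl (SD, n = 3 each); its groups did not overlap, but it did not pass (adjusted p = 0.108).

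Within the MIS12 complex, which bridges the inner network and NDC80, MIS12 was the member that rose. MIS12 (ENSG00000167842; chromosome 17, 5486285 to 5490814, plus strand) measured 10.6, 12.3 and 10.2 FPKM in shTRMT6 against 7.44, 7.77 and 8.43 FPKM in shControl (1.40-fold higher, log2 fold change 0.43, SE 0.11, adjusted p = 0.0099). The call ended without shTRMT6 replicate 2 (adjusted p = 0.0597). Of its exon bases 9.53% are shared with DERL2 on the opposite strand, which was not called. Its partners DSN1, NSL1 and PMF1 had log2 fold changes of -0.19, -0.31 and -0.22 and did not pass; with replicate numbers as pairs NSL1 (adjusted p = 0.0288) and PMF1 (0.0398) did. PMF1, the outer-layer gene with the highest mean, read 37.8, 37.3 and 32.6 FPKM in shTRMT6 against 47.2, 41.2 and 37.5 FPKM in shControl, and shares exons with the read-through gene PMF1-BGLAP. The ratio of MIS12 to NSL1 was 1.53, 1.57 and 1.72 in shTRMT6 against 0.956, 0.853 and 0.888 in shControl. KNL1, the scaffold on which the BUB proteins assemble, averaged 2.43 ± 0.429 FPKM in shTRMT6 and 3.49 ± 0.963 FPKM in shControl (SD, n = 3 each; adjusted p = 0.0971, or 0.0269 with replicate numbers as pairs). Its binding partner ZWINT did not pass (log2 fold change -0.19, adjusted p = 0.249).

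**Figure D3:**
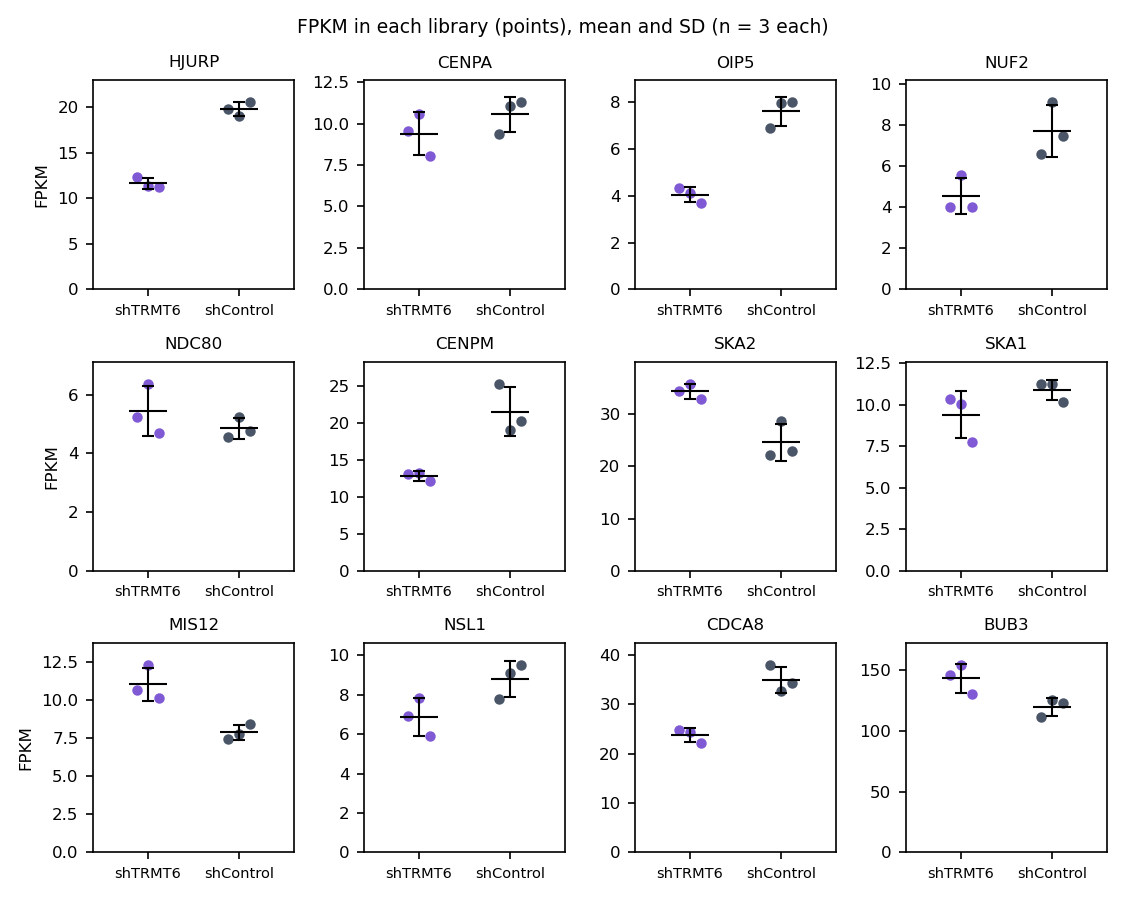
FPKM of 12 genes in each library (points), with shTRMT6 left and shControl right in each panel; the horizontal line is the mean and the error bar the SD (n = 3 each). NUF2 separates the groups while NDC80 does not, HJURP separates them while CENPA does not, and SKA2 and MIS12 are higher in shTRMT6 while SKA1 and NSL1 have lower means there.

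The SKA complex couples NDC80 to moving microtubule ends and is made of SKA1, SKA2 and SKA3. SKA2 (ENSG00000182628; chromosome 17, 59109951 to 59155269, minus strand) measured 34.3, 35.7 and 32.9 FPKM in shTRMT6 against 22.2, 28.6 and 22.9 FPKM in shControl, with no overlap. It was 1.40-fold higher, and at 0.47 (SE 0.11, adjusted p = 0.0056) its log2 fold change was the highest among the members. SKA1 read 10.35, 10.03 and 7.77 FPKM in shTRMT6 against 11.2, 11.2 and 10.2 FPKM in shControl (log2 fold change -0.20, adjusted p = 0.214), and SKA3 averaged 13.2 ± 0.820 FPKM in shTRMT6 and 13.8 ± 2.10 FPKM in shControl (SD, n = 3 each; adjusted p = 0.766). The ratio of SKA2 to SKA1 was 3.31, 3.56 and 4.23 in shTRMT6 against 1.97, 2.54 and 2.25 in shControl, between transcripts of 37.4% and 43.4% GC. These ratios, like those for HJURP, NUF2 and MIS12 above, were chosen after their values were seen and carry no test.

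Promoters are shown for members that differ within a shared structure: HJURP, NUF2 and SKA2, which were called, beside CENPA, NDC80 and SKA1, which were not. Each runs from 250 bases before to 50 after the RefSeq start (GRCh38.p14), 5′ to 3′ on the gene's strand. Capitals mark the CHR letters TTTGAA or TTCGAA, the NF-Y box CCAAT and the E2F letters TTTCCCGC, TTTGGCGC, TTTGCCGC or TTTCGCGC, each searched on both strands; TTCGAA is its own reverse complement.
HJURP (chr2:233854486-233854785, minus strand): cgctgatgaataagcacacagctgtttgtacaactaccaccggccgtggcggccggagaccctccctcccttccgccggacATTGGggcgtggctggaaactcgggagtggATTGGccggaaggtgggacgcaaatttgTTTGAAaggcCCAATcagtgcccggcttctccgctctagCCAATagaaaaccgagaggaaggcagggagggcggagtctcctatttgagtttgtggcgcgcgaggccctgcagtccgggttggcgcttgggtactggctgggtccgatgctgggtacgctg
CENPA (chr2:26785806-26786105, plus strand): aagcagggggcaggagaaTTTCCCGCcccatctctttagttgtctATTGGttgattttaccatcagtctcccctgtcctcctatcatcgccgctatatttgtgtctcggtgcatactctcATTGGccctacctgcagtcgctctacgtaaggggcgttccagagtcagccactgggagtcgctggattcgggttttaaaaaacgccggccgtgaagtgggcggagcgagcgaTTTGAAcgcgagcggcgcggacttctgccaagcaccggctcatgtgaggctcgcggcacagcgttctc
NUF2 (chr1:163321704-163322003, plus strand): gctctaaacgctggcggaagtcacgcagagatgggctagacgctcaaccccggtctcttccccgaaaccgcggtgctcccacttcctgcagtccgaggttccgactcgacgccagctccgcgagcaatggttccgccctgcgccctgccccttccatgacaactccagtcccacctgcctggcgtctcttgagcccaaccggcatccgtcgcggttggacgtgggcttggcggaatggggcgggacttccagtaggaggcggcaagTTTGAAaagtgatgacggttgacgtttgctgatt
NDC80 (chr18:2571307-2571606, plus strand): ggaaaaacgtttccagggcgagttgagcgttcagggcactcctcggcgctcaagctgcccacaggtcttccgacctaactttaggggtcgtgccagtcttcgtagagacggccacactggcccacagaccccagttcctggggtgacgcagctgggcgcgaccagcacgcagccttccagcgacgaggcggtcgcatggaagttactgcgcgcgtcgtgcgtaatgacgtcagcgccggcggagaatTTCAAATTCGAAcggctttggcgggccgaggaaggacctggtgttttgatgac
SKA2 (chr17:59155137-59155436, minus strand): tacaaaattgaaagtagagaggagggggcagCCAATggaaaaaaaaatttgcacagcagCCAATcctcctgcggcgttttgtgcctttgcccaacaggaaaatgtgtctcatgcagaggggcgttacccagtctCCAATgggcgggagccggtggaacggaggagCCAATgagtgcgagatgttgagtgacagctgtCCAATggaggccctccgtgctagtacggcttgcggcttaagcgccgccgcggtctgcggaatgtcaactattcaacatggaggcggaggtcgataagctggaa
SKA1 (chr18:50374796-50375095, plus strand): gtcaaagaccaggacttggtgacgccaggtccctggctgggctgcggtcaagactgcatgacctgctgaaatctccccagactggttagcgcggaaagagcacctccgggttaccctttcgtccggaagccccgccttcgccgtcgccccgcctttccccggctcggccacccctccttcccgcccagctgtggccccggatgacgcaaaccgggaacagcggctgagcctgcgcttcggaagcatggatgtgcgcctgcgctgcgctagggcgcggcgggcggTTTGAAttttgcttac
A CHR match is present in both NUF2, which fell, and NDC80, which was not called, and in HJURP and CENPA alike. SKA2 has none in this window but 5 CCAAT boxes, and SKA1 has a CHR match and no CCAAT box. Of the 34 members with a RefSeq promoter, 19 (55.9%) held a CHR match, against 14.9% of tested genes, and 23 (67.6%) held CCAAT, against 43.8%. E2F letters were found in 4 members (11.8%), against 7.21% of tested genes. By call, CHR letters were in 7 of 9 members called lower, 1 of 3 called higher and 11 of 21 not called. A match is a string of letters and does not show binding. BIRC5, BUB3, CENPH, CENPL, CENPM, KNL1, KNTC1 and MIS18A had no entry.

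The fibrous corona is the outermost layer, which gathers motors and checkpoint proteins before microtubules attach. CENPF, a large microtubule-binding protein of the corona, averaged 3.25 ± 0.107 FPKM in shTRMT6 and 5.05 ± 1.07 FPKM in shControl (SD, n = 3 each; 1.55-fold lower, log2 fold change -0.49, SE 0.14, adjusted p = 0.0154). KNTC1, ZW10 and ZWILCH form the RZZ complex, the building block of the corona. KNTC1 averaged 2.26 ± 0.312 FPKM in shTRMT6 and 3.23 ± 0.410 FPKM in shControl (SD, n = 3 each) and fell (log2 fold change -0.37, adjusted p = 0.0411). ZW10 measured 5.36, 5.52 and 5.18 FPKM in shTRMT6 against 3.57, 4.43 and 4.09 FPKM in shControl, a rise of 1.33-fold (a log2 fold change of 0.34, SE 0.12, adjusted p = 0.0385). ZWILCH, the highest of the layer, overlapped at 9.56, 10.03 and 9.01 FPKM in shTRMT6 against 6.96, 9.55 and 10.3 FPKM in shControl. Of the exon bases of ZWILCH, 3.26% are shared with RPL4 on the opposite strand, which averaged 2880 FPKM over all libraries. Reads from that stretch cannot be told apart, and their part in the ZWILCH values was not tested. The CENPF call ended without shControl replicate 2 (adjusted p = 0.0608) or shTRMT6 replicate 1 (0.055). The KNTC1 call ended without shControl replicate 2 (0.0749) or 3 (0.166) or shTRMT6 replicate 1 (0.131) or 3 (0.109). The ZW10 call ended without any library other than shControl replicate 2, with adjusted p from 0.0588 to 0.118. All 3 calls ended without the filter on low values, at adjusted p from 0.0596 to 0.0721. SPDL1, which brings dynein to the kinetochore, had a log2 fold change of 0.27 (adjusted p = 0.19), with shTRMT6 replicate 3 below the other knockdown libraries; without that replicate it was called higher (adjusted p = 0.0304). CENPE, the kinesin of the corona, was listed at 0.47, 0.53 and 0.61 FPKM in shTRMT6 against 0.80, 0.62 and 0.73 FPKM in shControl. Over its long transcript this corresponds to an estimated 81.8 to 102 fragments per library in shTRMT6 and 124 to 178 in shControl. Estimated depth was itself lower in shTRMT6, so the groups differ more in these fragments than in FPKM.

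The spindle checkpoint delays anaphase until all chromosomes are attached, and none of its 3 genes in the list passed. BUB3, by far the most abundant member per length, measured 146, 154 and 130 FPKM in shTRMT6 against 112, 126 and 123 FPKM in shControl. Every shTRMT6 library was above every shControl library, but the difference just missed (log2 fold change 0.25, SE 0.10, adjusted p = 0.0547); with replicate numbers as pairs it passed (adjusted p = 0.00837), without shTRMT6 replicate 3 it also passed (0.0244), and after the GC correction its log2 fold change was 0.04 (adjusted p = 0.642). MAD2L1, part of the inhibitor of the anaphase-promoting complex, averaged 21.0 ± 0.756 FPKM in shTRMT6 and 21.0 ± 2.77 FPKM in shControl (SD, n = 3 each; log2 fold change 0.01, SE 0.11). MAD1L1, its receptor at the kinetochore, had a log2 fold change of 0.18 (adjusted p = 0.275), and 0.33 after the GC correction (adjusted p = 0.0236); at 62.6% its transcript has the highest GC content of all members.

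The chromosomal passenger complex carries the kinase Aurora B to the inner centromere, where it releases faulty attachments. All 3 of its genes in the list fell, where 16.1% of all tested genes were called lower. CDCA8 (borealin) measured 24.9, 24.4 and 22.2 FPKM in shTRMT6 against 37.8, 32.7 and 34.2 FPKM in shControl (1.47-fold lower, log2 fold change -0.53, SE 0.10, adjusted p = 0.00165). INCENP, the scaffold that activates Aurora B, measured 19.4, 16.6 and 17.9 FPKM in shTRMT6 against 24.4, 26.1 and 27.9 FPKM in shControl (1.45-fold lower, log2 fold change -0.52, SE 0.10, adjusted p = 0.00231). BIRC5 (survivin) measured 45.2, 42.8 and 41.4 FPKM in shTRMT6 against 58.5, 55.5 and 52.5 FPKM in shControl (1.29-fold lower, log2 fold change -0.36, SE 0.09, adjusted p = 0.0104). In each of these genes the groups were clear of each other. The kinase itself, AURKB, from the list of other kinetochore genes, fell too, averaging 48.1 ± 2.24 FPKM in shTRMT6 and 79.2 ± 10.2 FPKM in shControl (SD, n = 3 each; log2 fold change -0.70, adjusted p = 0.000397).

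Of the 25 other kinetochore and checkpoint genes, all of which were tested, 9 were called lower (36%) and 1 higher (4%). Their median log2 fold change was -0.15. The shares of all tested genes were 16.1% and 19.3%. After the GC correction 14 were called lower (56%) and 2 higher (8%), against 19.4% and 19.8% of all genes. After AURKB, the largest changes were in PLK1, a mitotic kinase (log2 fold change -0.67), KIF2C, the centromeric microtubule depolymerase (-0.55), CDC20, the target of the checkpoint (-0.48), and ITGB3BP, which encodes CENP-R (-0.47). BOD1, a centromeric phosphatase inhibitor, was the gene that rose (0.42, adjusted p = 0.0079), chosen after its value was seen; without shTRMT6 replicate 2 none of these 25 genes, BOD1 included, was called higher (0 against 1). Cell cycle genes outside the kinetochore moved alongside. Of 19 tested G2/M genes 9 fell (47.4%) and none rose (median -0.27). Of 30 S phase genes 18 fell (60%) and 1 rose (3.33%, median -0.38). Over all tested genes 16.1% were called lower and 19.3% higher. After the GC correction 16 G2/M (84.2%) and 21 S phase genes (70%) were called lower and none higher. The shares of all genes were then 19.4% and 19.8%. With a library left out the G2/M count was 5 to 9. It was 5 (26.3%) without shControl replicate 2 or shTRMT6 replicate 2, against 13.4% and 10.5% of all tested genes. Without shTRMT6 replicate 1 it was 6 (31.6%, against 11.0% of all tested genes). The S phase count was 14 to 18 with a library left out, where 10.5% to 16.3% of all tested genes were called lower. The part of these cell cycle lists in the values of the centromere and kinetochore genes was not tested.

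**Figure D4:**
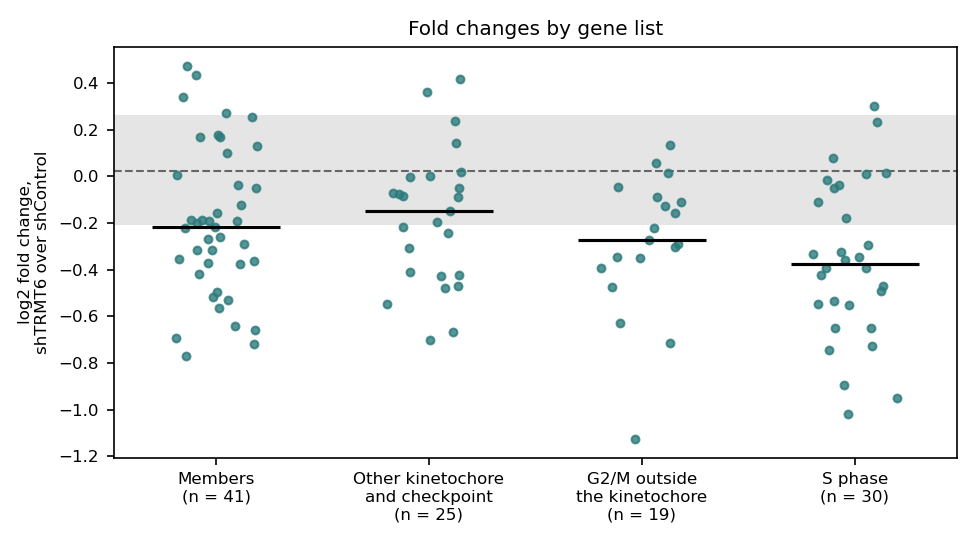
Log2 fold change of shTRMT6 over shControl for each tested gene (points) of the 42-gene list and of the lists of other kinetochore, G2/M and S phase genes; black lines are list medians, the grey band and dashed line are the quartiles and median of all 10592 tested genes. Medians run from -0.15 to -0.38, all below the 0.02 of all tested genes, and each list spans positive and negative values.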

How the data were processed

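Per the file headers, the deposited values are FPKM, 1 per gene and library, computed by the authors; the tools listed in the submitters' processing notes, with no roles, are RSEM, HISAT2, StringTie (1.3.1), Bowtie2 (2.2.8) and fastp (0.18.0). Build, annotation and strand setting are not given in the sources used here. Columns were matched to samples by group and replicate number, with NC read as the control hairpin. FPKM are not counts, so log2(FPKM + 1) values were tested with limma (3.58.1, in R 4.3.3) for the 10592 of 20289 genes whose mean reached 1 FPKM. The test was two-sided with a variance prior that follows mean level, and p-values were adjusted over all tested genes by Benjamini-Hochberg, with a threshold of 0.05. Fold changes on this scale understate those of low genes, so ratios of mean FPKM are also given. The script was checked on simulated data with known changes. Those data held no GC trend and no link between same-numbered libraries, so the check does not bear on either.

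Symbols came from a gene name table, and coordinates, GC content and overlaps from GENCODE release 29 (longest protein-coding transcript), which may differ from the authors' annotation. Depth was estimated from the steps between low values in genes that have 1 annotated transcript. Members, lists and the rule for named genes (all 42 members, TRMT6 and, of the other kinetochore genes past the threshold, the 5 with the largest changes; BOD1 is outside it) were chosen with earlier results of these data known. The GC correction removed a lowess trend (span 0.3) of each library's deviations on GC content.

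Same-numbered libraries deviated together (r = 0.21, 0.36 and 0.17 for replicates 1, 2 and 3), the only ground for pairing. Between different numbers r was -0.29 to 0.09. Deviations were taken from each group's own mean, so positive values for same numbers make those between different numbers negative on average. The contrast is thus partly built in. The fit without the replicate block is the main one. Other alternatives were pseudocounts of 0.1 and 0.5, other filters, scalings, variance priors and thresholds, and each library left out.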

Additional observations from a re-analysis of the deposited data

How the results depend on the processing

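The members called lower numbered 12; under the 18 alternatives they numbered 9 to 27, with 26 after the GC correction and 27 with the GC correction and the replicate block, and 10 to 17 with a library left out. Those called higher numbered 3, and 1 to 4 with a library left out. The median was -0.22, moved to -0.37 by the GC correction with or without the block, and ranged from -0.30 to -0.14 with a library left out. Of 15 called members 10 kept their call under every alternative and none changed sign; of 26 uncalled, 19 were called under at least 1. The replicate block alone called 17 members lower and 4 higher, where 21.3% and 25.5% of all tested genes were called, and ended none of the 15 calls.

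Over all genes, 1704 were called lower and 2042 higher; 2638 were lower with the GC correction and the block, and 949 and 1114 were called lower and higher at a threshold of 0.01. With a library left out the counts were 1112 to 1731 lower and 1295 to 2027 higher. Other kinetochore genes called lower numbered 9, against 14 with the GC correction and 15 with the block as well; the 1 called higher became 2 with quantile normalization or the GC correction (with or without the block), 3 with the block alone, and 0 to 2 with a library left out.

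Signs turned only in uncalled members. With the GC correction, with or without the block, the log2 fold change was -0.082 for CENPC, -0.012 for CENPL, -0.10 for NDC80, -0.16 for ZWILCH and -0.23 for MAD2L1, the last of which was then called lower (adjusted p = 0.0302, or 0.0148 with the block). MAD2L1 was also at -0.028 with median-of-ratios scaling. With a library left out, the range was -0.088 to 0.094 for MAD2L1, -0.054 to 0.20 for ZWILCH, -0.14 to 0.057 for SKA3, -0.10 to 0.012 for CENPN and -0.30 to 0.059 for CENPQ. Apart from the GC correction, where removal of the GC trend is the only change, the cause of these moves was not tested. Depth limits most the members with the fewest estimated fragments in a library, CENPQ (69), CENPE (81.8) and OIP5 (88.7).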
